A study of Mus musculus with 29 samples.

Results

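Clamping of the aorta left some mouse spinal cords with much more chemokine mRNA than others, and the 6 cords at the ends of that range are compared here. The high group holds WT ACC 2, WT ACC 3 and miR155KI ACC 2, and the low group holds miR128KO ACC 3, miR155KI ACC 3 and miR155KI ACC 4. These are 6 of 29 libraries in the series and 6 of the 11 clamped cords that the study analysed at 4 h. The cords were chosen by the authors on their levels of Ccl2, Ccl3 and Ccl4, so those 3 genes are described without a test and support nothing below. Each library is poly-A RNA of the thoracic and lumbar cord of 1 mouse, taken 4 h after aortic cross clamping (ACC), which cuts blood flow to the lower cord, or after a Sham operation. WT mice are C57BL-6J, miR128KO mice lack miR-128 in the whole body, and miR155KI mice carry miR-155 knocked in to motor neurons. The knock-out and knock-in are also on a C57BL6 background, and mice of both sexes were used. Sham cords number 11, from 3 WT, 4 miR128KO and 4 miR155KI mice.

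Chemokines are small secreted proteins that draw leukocytes along a gradient. Ccl2 draws monocytes through the receptor Ccr2, and Ccl3 and Ccl4 are released by activated microglia, the resident macrophages of the cord. In injured nervous tissue their transcription depends in large part on NF-kB, a transcription factor that also drives interleukins and its own inhibitors.

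The 3 choosing genes differ between the groups because of the choice. In the authors' normalized counts Ccl4 stood at 424, 525 and 501 in the high cords WT ACC 2, WT ACC 3 and miR155KI ACC 2, against 66.6, 136 and 160 in the low cords miR128KO ACC 3, miR155KI ACC 3 and miR155KI ACC 4. Ccl3 stood at 502, 657 and 674 in high cords, against 99.3, 241 and 208 in low cords. Ccl2 stood at 117, 169 and 117 in high cords, against 33.9, 33.6 and 27.0 in low cords. The stated rule asks for a value at or above the third quartile of the 11 clamped cords in all 3 genes for the high group, and at or below the first quartile for the low group. All 3 low cords met it. On the deposited values only WT ACC 3 of the high group met it in all 3 genes, miR155KI ACC 2 met it in 2 genes and missed it for Ccl2 (117, where the third quartile is 119), and WT ACC 2 met it in 0 genes. miR155KI ACC 5 met it in all 3 genes, with 158, 699 and 557 normalized counts of Ccl2, Ccl3 and Ccl4, and is not in the deposited high group. The groups are used here as deposited. Ccl4 counts scaled to library size (CPM) in Sham cords lay between 0.0337 and 0.374, so the low cords, at 2.81, 5.78 and 6.80 CPM, were also above every Sham cord.

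**Figure D1:**
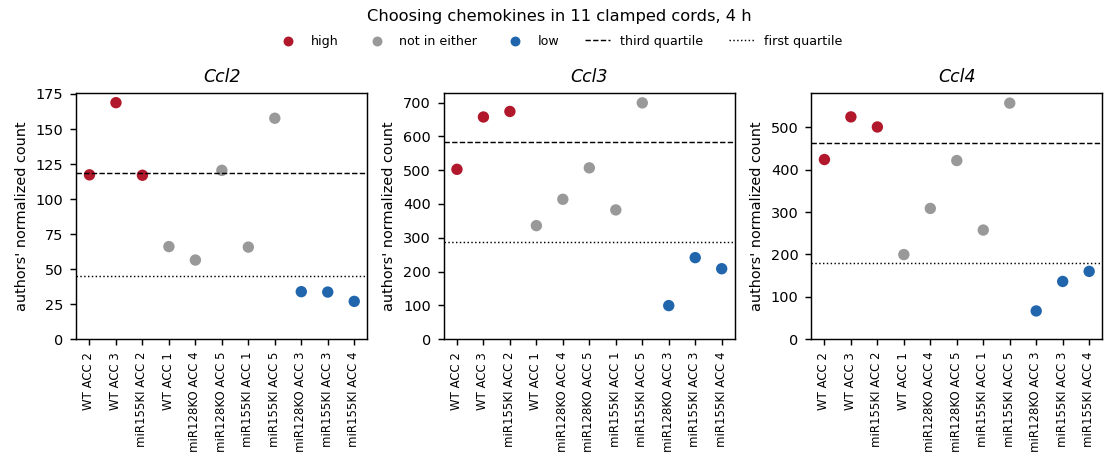
Authors' normalized counts of Ccl2, Ccl3 and Ccl4 in the 11 clamped cords, high group first and low group last, with the third quartile (dashed) and first quartile (dotted) over these cords. The low cords lie under the first quartile in all 3 panels, while WT ACC 2 lies under the third quartile in all 3 and miR155KI ACC 5, in neither group, lies above it in all 3.

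High libraries held 17716333, 18582027 and 24117889 counts and low libraries 19792349, 28145121 and 25408573. The groups differ in genotype, since 2 of 3 high cords are WT and none of the low cords is, and genotype and group cannot be fully told apart. Libraries labelled WT also differ among themselves. Gabra2 stood at 53.7 and 56.5 CPM in WT ACC 2 and 3, and at 50.2, 123 and 161 CPM in WT Sham 1, 2 and 3. Ide stood at 54.0 and 56.8 CPM in the same clamped cords, and at 106, 57.1 and 53.9 CPM in the same Sham cords. The high and low cords also differ in these genes. Gabra2 stood at 166 CPM in the low cord miR128KO ACC 3, and at most at 58.2 CPM in the others. Ide stood at 100 CPM in the high cord miR155KI ACC 2 and at 109 and 112 CPM in the low cords miR155KI ACC 3 and 4. In the other compared cords Ide stood at most at 56.8 CPM. The part of these differences in the comparison of high with low cords, and in those with Sham, was not tested. Xist, expressed in female cells, stood at 458 to 556 CPM in the high cords and at 420 and 470 CPM in 2 low cords, but at 0.0791 CPM in the low cord miR155KI ACC 4. Markers of the labelled tissue were present: 20 of 20 neuronal genes were tested, and they summed to 12300 to 13900 CPM in high cords and 12900 to 15500 CPM in low cords. None of the 20 neuronal, 16 astrocyte and 16 oligodendrocyte markers was at 0 in all 6 libraries.

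Transcripts of another organ stood apart in 2 of the 3 high libraries. A list of 30 liver genes, made after the values were seen, summed to 223, 11.0 and 326 CPM in WT ACC 2, WT ACC 3 and miR155KI ACC 2, against 9.61, 15.5 and 20.1 CPM in the low cords. Sham cords ranged from 6.52 to 82.0 CPM with a median of 13.1, and miR155KI ACC 5, in neither group, reached 1530 CPM. Alb, the liver's main serum protein, stood at 69.1, 0.877 and 131 CPM in high cords and 0.409, 2.53 and 0.870 CPM in low cords. Fga, which encodes a fibrinogen chain, showed the same 2 high libraries at 12.8 and 18.7 CPM and WT ACC 3 at 0.219 CPM, against 0.204 to 0.428 CPM in low cords. Genes of this kind therefore differ between the groups through 2 libraries. Kidney genes summed to 2.25 to 3.51 CPM in high cords and 1.58 to 3.25 CPM in low cords, with Kap and Umod at 0 in all 6. Adipose genes summed to 25.4 to 76.6 CPM in high cords and 17.4 to 104 CPM in low cords. Of the blood cells, neutrophil genes summed to 164, 60.8 and 116 CPM in WT ACC 2, WT ACC 3 and miR155KI ACC 2, against 63.4 to 79.6 CPM in low cords, and Sham cords ranged from 84.2 to 266 CPM. Red blood cell genes summed to 630, 243 and 326 CPM in the same high cords, against 219 to 298 CPM in low cords. The part of these transcripts in the results below was not tested.

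**Figure D2:**
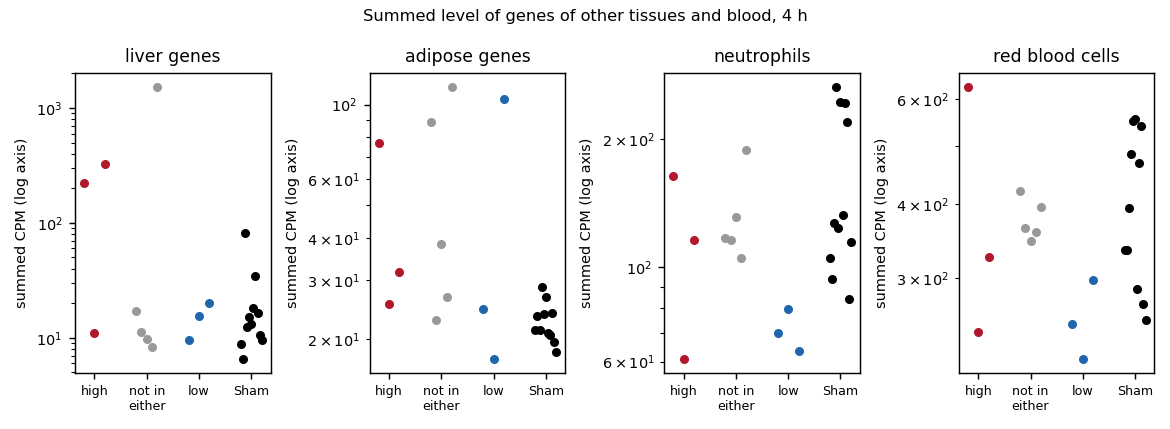
Summed CPM (log axis) of genes typical of liver, fat, neutrophils and red blood cells in each library at 4 h, with high cords left, then clamped cords in neither group, low cords and Sham cords. For liver genes 2 high cords and 1 cord in neither group lie above all Sham cords, while WT ACC 3, at 11.0 CPM, lies among the low cords.

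Across all 17775 genes tested with edgeR, 2 were called besides the choosing genes at an adjusted p under 0.05, a share of 0.0113%, and both rose in high cords. At an unadjusted p under 0.05, 500 genes were higher and 322 lower. In 885 genes (4.98%) all 3 high cords lay above all 3 low cords, and in 855 genes (4.81%) all 3 lay below. Both tails are thus alike in size over the whole table, and 4.98% and 4.81% are the shares against which the counts of each gene list below are read. Since the cords were sorted by 3 correlated genes, other genes that vary together with them between mice also differ by the way the groups were made.

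Plek (ENSMUSG00000020120, chromosome 11, 16971206 to 17052381) encodes pleckstrin, a protein kinase C substrate of platelets and leukocytes that is also made by activated microglia. It stood at 52.9, 62.3 and 54.1 CPM in high cords, against 29.8, 33.3 and 28.4 CPM in low cords. The groups do not overlap, and WT ACC 3 is the highest. Plek averaged 56.4 ± 5.13 CPM in high cords and 30.5 ± 2.51 CPM in low cords (SD, n = 3 each), a log2 fold change of 0.89 (SE 0.1004, adjusted p = 0.024). Sham cords lay between 15.3 and 24.5 CPM, below every one of the 6 clamped cords. Against Sham, Plek rose by 1.41 in high cords (SE 0.0965, adjusted p = 1.29e-09) and by 0.62 in low cords (SE 0.0952, adjusted p = 0.000225) on the log2 scale. The gene span overlaps Cnrip1, and the strand setting of the counting is not given in the sources used here. Leaving out 1 library ended the call in 4 of 6 cases, without WT ACC 2, miR155KI ACC 2, miR128KO ACC 3 or miR155KI ACC 4 (adjusted p = 0.0995, 0.0905, 0.0586 and 0.119), although the log2 fold change stayed between 0.81 and 0.95 in all 6.

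Lilr4b (ENSMUSG00000112023, chromosome 10, 51480632 to 51486703) encodes an inhibitory immunoglobulin-like receptor of myeloid cells. It stood at 7.84, 6.47 and 5.59 CPM in high cords, against 1.74, 2.39 and 1.58 CPM in low cords. The log2 fold change was 1.79 (SE 0.232, adjusted p = 0.0452). Sham cords spread from 1.05 to 6.16 CPM, a range that takes in all 3 low cords and the lowest high cord. Its near-identical neighbour Lilrb4a stood at 4.94, 4.06 and 3.86 CPM in high cords, against 1.69, 2.14 and 1.82 CPM in low cords (log2 fold change 1.18, adjusted p = 0.217). Reads of the pair may have been split in counting, so the level of each is uncertain. The Lilr4b call was lost without WT ACC 2, miR155KI ACC 2, miR128KO ACC 3 or miR155KI ACC 4 (adjusted p from 0.0905 to 0.280), and the adjusted p was 0.793 when the spread was taken over all 22 libraries at 4 h.

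The next 8 genes by rank did not pass (adjusted p from 0.0712 to 0.102) but had all 3 high cords above all 3 low cords. Ptgs2, the inducible cyclooxygenase that makes prostaglandins, stood at 8.50, 9.10 and 6.74 CPM in high cords and 3.17, 3.32 and 3.40 CPM in low cords (log2 fold change 1.29, SE 0.181, adjusted p = 0.0712). Rgs1, a brake on chemokine receptor signalling in immune cells, stood at 3.84, 4.22 and 3.49 CPM in high cords and 1.58, 1.43 and 1.42 CPM in low cords (log2 1.38). C3ar1, the receptor for the complement fragment C3a, stood at 14.8, 15.7 and 14.2 CPM in high cords, 7.51, 9.42 and 8.86 CPM in low cords and 1.64 to 3.04 CPM in Sham cords. In these 3 genes the high cords differ little among themselves, and C3ar1 stands above Sham in every one of the 6 cords. Lgals3, a lectin of activated macrophages and microglia, stood at 10, 11.7 and 7.52 CPM in high cords and 3.89, 4.6 and 4.35 CPM in low cords, where Sham cords ranged from 3.50 to 7.35 CPM. The interferon-induced GTPase gene Gbp5 (log2 1.41), the growth arrest gene Btg2 (0.82), the chemokine gene Ccl9 (1.27) and Cyyr1 (1.14), which encodes a membrane protein, complete the set.

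**Figure D3:**
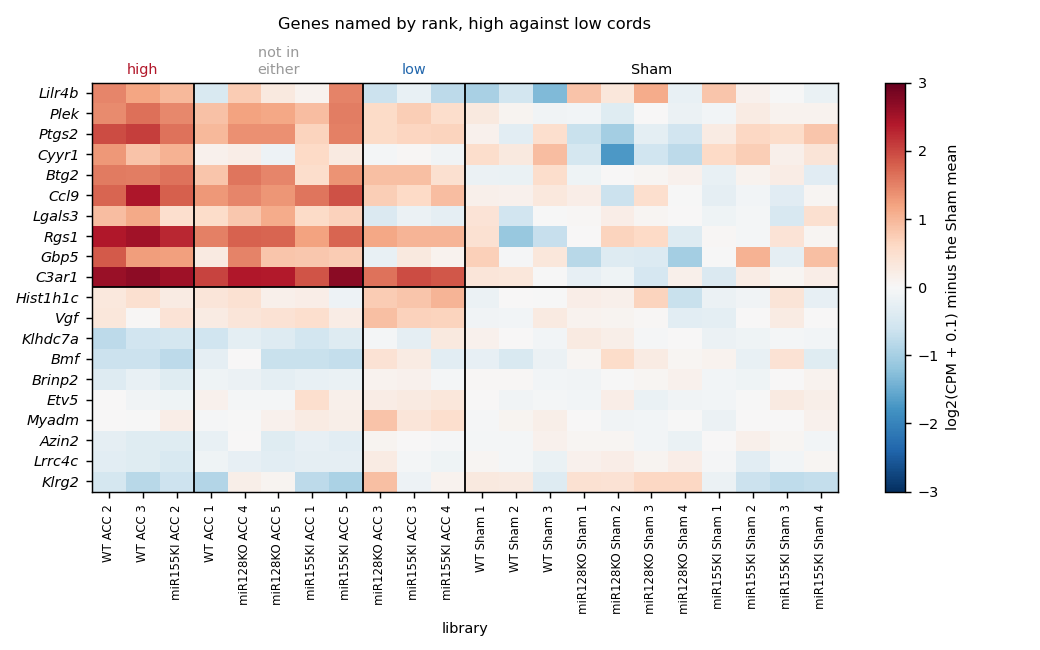
Heat map of log2(CPM + 0.1) minus the Sham mean for the 10 genes named as higher and the 10 named as lower in high cords, by library, with high cords left. In the upper rows the 3 high cords are darker red than the 3 low cords, and in Lilr4b the low cords stand below the Sham mean. In the lower rows the high cords are below the low cords, by most in Klrg2 and Bmf (edgeR log2 fold change -1.03 and -0.85).

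The authors' deposited table, made with DESeq2, lists 54 genes at an adjusted p under 0.05 besides the choosing genes, 50 higher and 4 lower in high cords. All 45 of them that passed the filter here had an unadjusted p under 0.05 in edgeR, and 10 of the 54 are on the liver list. In the authors' deposited table Plek had an adjusted p of 1.25e-09 and a log2 fold change of 0.88 with high over low, Plau 9.62e-06 and 1.63, and Cxcl1 was among the 54. DESeq2 run here on the same counts called 51 higher and 5 lower. The difference in count between the tools is therefore large, and the fold changes are not: Ptgs2 had 1.29 in edgeR and 1.29 in the authors' deposited table.

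The other C-C chemokine ligands lay to the high side. Of 18 in the table, 10 were tested and 0 were called. In 4 of the 10 all high cords lay above all low cords, and in 0 below, and the median log2 fold change was 0.79, against -0.00 over all genes tested. Ccl9, which draws myeloid cells in mice, stood at 9.98, 16.1 and 10.3 CPM in high cords, 4.96, 4.50 and 5.62 CPM in low cords and 1.82 to 4.21 CPM in Sham cords. Against Sham it rose by 1.94 in high cords (adjusted p = 2.24e-07) and by 0.86 in low cords (adjusted p = 0.00723). Ccl12, a mouse ligand of Ccr2, stood at 2.19, 4.71 and 2.18 CPM in high cords and 0.613, 0.821 and 1.5 CPM in low cords. Sham cords ranged from 0.26 to 2.2 CPM of Ccl12 with a median of 0.871, so only the high cord WT ACC 3 lay above that range. Ccl7, which also binds Ccr2, stood at 1.04, 1.48 and 0.863 CPM in high cords and 0.307, 0.571 and 0.356 CPM in low cords, with a largest Sham value of 0.489. Of the low cords only miR155KI ACC 3 reached the 0.455 CPM of the count filter, so Ccl7 was tested mainly through the high cords. Ccl6 stood at 5.14 to 5.37 CPM in high cords and 2.57 to 3.48 CPM in low cords. The ligand Ccl27a, at 24.1 to 28.7 CPM in high cords and 27.1 to 28.4 CPM in low cords, did not differ beyond its spread (log2 fold change -0.09, SE 0.10). This symbol has 3 gene entries. The entry with the highest mean CPM is used here, and its span overlaps Il11ra1. Another entry (ENSMUSG00000095247) had a log2 fold change of 2.14 (SE 1.11) with high over low in the authors' deposited table.

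Ligands of the other classes gave 3 of 8 tested genes with all high cords above all low cords, 1 below and 0 calls. Of the 3, Cxcl10 and Pf4 had no low cord at the filter's level of 0.455 CPM, so they were tested through the high cords alone and had to lie on that side. Among the other 6 tested genes 1 lay above and 1 below. Cxcl1, which draws neutrophils, stood at 4.66, 3.01 and 2.59 CPM in high cords, 1.33, 0.642 and 0.830 CPM in low cords and at most 0.529 CPM in Sham cords (log2 fold change 1.89, SE 0.35, adjusted p = 0.164). Cxcl10, an interferon-induced attractant of T cells, stood at 1.65, 1.32 and 1.07 CPM in high cords and 0.307, 0.428 and 0.0395 CPM in low cords, with Sham at 0.189 to 0.863 CPM. The low cord miR155KI ACC 4 held 1 count of Cxcl10, under the 3 counts (0.119 CPM) taken as the limit. Its place below every Sham cord is therefore uncertain, and the other low cords lie within the Sham range. Cxcl2 was filtered out and stood at 1.48, 0.384 and 1.23 CPM in high cords and 0.256, 0.214 and 0.158 CPM in low cords, where the limit that 3 counts allow in a library is 0.107 to 0.153 CPM. Cx3cl1, the neuronal ligand of microglia, had 165 to 173 CPM in high cords and 177 to 192 CPM in low cords. Of 10 chemokine receptors tested, 1 had the high cords above the low ones, the monocyte receptor Ccr2 at 1.87, 0.712 and 0.863 CPM against 0.562, 0.642 and 0.475 CPM in low cords. Sham cords ranged from 0.701 to 4.53 CPM of Ccr2, so all 3 low cords lay below every Sham cord and all 3 high cords within the Sham range. Ccr1, the receptor of Ccl3, stood at 4.50, 4.38 and 2.84 CPM in high cords and 3.17, 2.07 and 1.15 CPM in low cords, and the groups overlap.

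Since NF-kB and AP-1 bind short motifs close to the start of many cytokine genes, the 250 bases before the RefSeq start (GRCm38.p6) were read for the core GGANTTTCC of an NF-kB site and for the AP-1 motif TGANTCA, on both strands. Of 18 chemokine and cytokine genes whose high cords all lay above the low cords, 14 had a window by symbol. The NF-kB core was in 4 of these 14 (Csf1, Cxcl1, Cxcl10 and Il6), against 1.25% of 27025 genes with a window, and the AP-1 motif was in 5 (Ccl9, Cxcl10, Il1a, Il1rn and Il6), against 7.82%. Cxcl10 and Il6 hold both motifs and were tested only through the high cords, so these shares are descriptions of chosen genes. Chemokine and cytokine genes that overlapped between the groups were not counted, so the part of the gene class in these shares was not tested. Among the 10 genes named as higher in high cords, 9 had a window, with the NF-kB core in 1 (Gbp5) and the AP-1 motif in 2 (C3ar1 and Ccl9). Among the 10 named as lower, 6 had a window, with the NF-kB core in 1 (Myadm) and the AP-1 motif in 1 (Lrrc4c), or 16.7% each. A match is a run of letters and not a shown site. The windows of Plek (chr11:17008719-17008968, minus strand), Gbp5 (chr3:142496684-142496933, plus strand), Cxcl1 (chr5:90890995-90891244, plus strand), Cxcl10 (chr5:92348890-92349139, minus strand) and Il6 (chr5:30012864-30013113, plus strand) are shown 5′ to 3′ along the gene, the first because it is the clearest called gene and has neither motif, the others because they hold the NF-kB core. Capitals mark a match to either motif.
Plek: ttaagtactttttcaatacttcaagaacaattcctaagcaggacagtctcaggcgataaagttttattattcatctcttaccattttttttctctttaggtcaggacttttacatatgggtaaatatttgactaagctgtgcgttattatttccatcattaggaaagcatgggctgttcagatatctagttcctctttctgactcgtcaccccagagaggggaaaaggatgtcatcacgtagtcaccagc
Gbp5: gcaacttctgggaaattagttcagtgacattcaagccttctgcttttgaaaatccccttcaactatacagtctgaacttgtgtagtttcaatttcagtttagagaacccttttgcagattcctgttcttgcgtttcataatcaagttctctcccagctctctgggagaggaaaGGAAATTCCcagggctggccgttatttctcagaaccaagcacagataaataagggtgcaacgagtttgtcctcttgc
Cxcl1: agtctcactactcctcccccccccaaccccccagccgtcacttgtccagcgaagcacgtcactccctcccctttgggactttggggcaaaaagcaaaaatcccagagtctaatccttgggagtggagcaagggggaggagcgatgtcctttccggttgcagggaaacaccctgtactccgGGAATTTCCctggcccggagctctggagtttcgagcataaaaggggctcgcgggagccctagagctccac
Cxcl10: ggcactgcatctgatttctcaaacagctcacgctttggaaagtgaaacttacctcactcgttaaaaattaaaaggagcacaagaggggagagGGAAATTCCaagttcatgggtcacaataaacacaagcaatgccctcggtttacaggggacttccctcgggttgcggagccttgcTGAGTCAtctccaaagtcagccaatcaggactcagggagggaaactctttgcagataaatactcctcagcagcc
Il6: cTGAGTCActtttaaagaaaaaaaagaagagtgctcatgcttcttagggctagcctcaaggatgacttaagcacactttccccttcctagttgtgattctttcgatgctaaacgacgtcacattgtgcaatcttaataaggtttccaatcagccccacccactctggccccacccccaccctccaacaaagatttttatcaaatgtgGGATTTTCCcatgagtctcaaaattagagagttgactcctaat
The NF-kB core starts 77 bases before the RefSeq start in Gbp5, 70 bases in Cxcl1, 158 bases in Cxcl10 and 43 bases in Il6. The AP-1 motif starts 74 bases before it in Cxcl10 and 249 bases in Il6.

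Of 24 cytokines and receptors tested, 20 had a positive log2 fold change, 11 had all high cords above all low cords, 0 had all below, and 0 were called. The median was 0.41. Il1b and Il6 were tested through the high cords alone, and without them 9 of 22 lay above, with a median of 0.33. Csf3 stays in that count, although of the low cords, at 0.102, 0.464 and 0.119 CPM, only miR155KI ACC 3 reached the filter's level of 0.455 CPM. Lists of other cell types leaned the same way: 14 of 15 fibroblast and meningeal genes were positive (median 0.40), 8 of 9 red blood cell genes (median 1.17) and 15 of 17 endothelial genes (median 0.23), with 1, 2 and 1 genes above without overlap. Against Sham, 16 of the 24 rose in high cords and 4 of the 24 in low cords, where the same calls over all genes covered 4.14% (800 of 19323) in high cords and 3.50% (676) in low cords. Genes that fell against Sham made up 1.89% in high cords and 1.21% in low cords, and 0 of these 24 were among either. Both counts rest on the same Sham libraries, and counts against Sham for the lists below are to be read against these shares. Il1a, interleukin 1 alpha, stood at 2.91, 4.49 and 3.58 CPM in high cords, 1.28, 1.39 and 0.910 CPM in low cords and 0.348 to 1.56 CPM in Sham cords (log2 fold change 1.61, adjusted p = 0.122). It rose against Sham in high cords by 1.78 (adjusted p = 0.000166), and had a value of 0.47 in low cords (adjusted p = 0.431). Il1rn, which blocks the interleukin 1 receptor, stood at 3.29, 2.41 and 2.34 CPM in high cords and 0.204, 0.607 and 0.989 CPM in low cords. Osm, a cytokine of the interleukin 6 family, stood at 2.19, 2.14 and 2.55 CPM in high cords and 0.256, 1.04 and 0.514 CPM in low cords. Its relative Clcf1 stood at 8.17, 6.03 and 6.41 CPM in high cords and 3.58, 4.07 and 2.97 CPM in low cords, with Sham at 2.90 to 4.93 CPM. In each of these 4 genes the high cords lie above every Sham cord, and all low cords but miR155KI ACC 3 in Osm lie within the Sham range.

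Some cytokines of the same list were close to the detection limit. Il6 had 13, 21 and 13 counts in high cords and 2, 6 and 2 counts in low cords, and Il1b had 14, 32 and 29 counts in high cords and 6, 4 and 10 counts in low cords. Tnf stood at 0.878, 1.70 and 0.904 CPM in high cords and 0.153, 0.892 and 0.395 CPM in low cords, and the groups overlap. Csf1, the growth factor that maintains microglia, is abundant and differed less, at 93.3, 101 and 92.7 CPM in high cords and 67.5, 70.7 and 82.8 CPM in low cords (log2 fold change 0.38, SE 0.0934, adjusted p = 0.522). The signal transducer Il6st, at 172 to 203 CPM in high cords and 166 to 173 CPM in low cords, and the alarmin Il33, at 132 to 179 CPM in high cords and 131 to 172 CPM in low cords, overlapped.

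**Figure D4:**
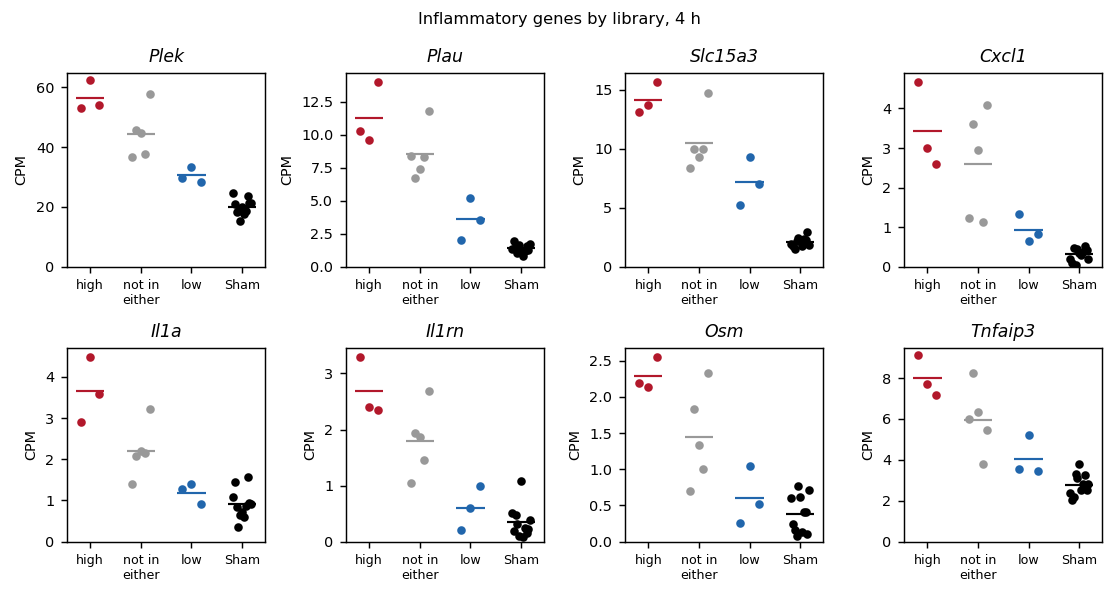
CPM of 8 inflammatory genes in each library at 4 h, with high cords left, then clamped cords in neither group, low cords and Sham cords, and a bar at each group's mean. In all 8 panels the 3 high cords lie above the 3 low cords, and for Il1a, Il1rn and Osm low cords reach into the Sham range. Most of the 8 genes were named after their values were seen, so that order is no separate support. Tnf, Il6st, Il33 and Nfkbia, not shown, overlapped between the groups.

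NF-kB subunits and feedback genes had 7 of 21 tested genes with high cords above low cords, 1 below and a median of 0.31. Tnfaip3, the ubiquitin-editing enzyme A20 that shuts NF-kB signalling off, stood at 9.11, 7.73 and 7.15 CPM in high cords and 3.53, 5.21 and 3.44 CPM in low cords (log2 fold change 0.97, adjusted p = 0.283). It rose against Sham by 1.66 in high cords (adjusted p = 1.46e-06), and had a value of 0.51 in low cords (adjusted p = 0.106). Nfkbid, an atypical inhibitor, stood at 6.53, 3.95 and 5.51 CPM in high cords and 3.53, 3.25 and 2.97 CPM in low cords. The main inhibitor gene Nfkbia did not share this pattern, at 53.4, 59.4 and 51.5 CPM in high cords and 73.9, 55.5 and 62.2 CPM in low cords. The subunit Relb lay the other way, at 8.18 to 9.21 CPM in high cords and 9.39 to 12.2 CPM in low cords, although it rose against Sham in both (0.92 and 1.10 on the log2 scale, adjusted p = 0.000104 and 3.7e-06). In the list 12 genes rose against Sham in high cords, and 5 rose and 1 fell in low cords.

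Genes of activated microglia had 10 of 25 tested members with high cords above low cords, 0 below, 1 call (Plek) and a median of 0.48. Cd14, the co-receptor for bacterial lipopolysaccharide, stood at 39.2, 46.5 and 32.7 CPM in high cords, 27.9, 17.8 and 17.1 CPM in low cords and 4.58 to 7.59 CPM in Sham cords. Ch25h, which makes the sterol messenger 25-hydroxycholesterol, stood at 6.75, 5.26 and 6.12 CPM in high cords and 1.18, 2.61 and 2.81 CPM in low cords. Clec7a, the beta-glucan receptor dectin-1, stood at 2.19, 3.67 and 1.93 CPM in high cords and 0.460, 0.857 and 1.15 CPM in low cords. Gpr84, a receptor for medium-chain fatty acids, stood at 2.52, 3.29 and 1.85 CPM in high cords and 1.53, 0.892 and 0.989 CPM in low cords. More abundant genes of the list, Apoe at 1620 to 2190 CPM in high cords and 1650 to 1990 CPM in low cords and Spp1 at 134 to 141 CPM in high cords and 132 to 135 CPM in low cords, did not differ beyond their spread. Plau, the urokinase that activates plasminogen, is on the endothelial list and stood at 10.3, 9.59 and 14 CPM in high cords, 2.04, 5.18 and 3.56 CPM in low cords and 0.779 to 1.97 CPM in Sham cords (log2 fold change 1.63, SE 0.288, adjusted p = 0.187). Slc15a3, an endolysosomal transporter of bacterial peptides that was named after its values were seen, stood at 13.1, 13.7 and 15.7 CPM in high cords and 5.27, 9.32 and 7.04 CPM in low cords. Mmp12, the macrophage elastase, is not on the microglial list and had 19, 35 and 40 counts in high cords and 1, 7 and 6 counts in low cords. No low cord reached the filter's level of 0.455 CPM, so Mmp12 was tested through the high cords alone and had to lie on that side.

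Homeostatic microglia genes showed no such shift, with 1 of 20 above, 2 of 20 below, 0 calls and a median of -0.06. They summed to 1530, 1800 and 1740 CPM in high cords and 1860, 1760 and 1860 CPM in low cords. P2ry12, the purine receptor of resting microglia, stood at 12.1 to 13.3 CPM in high cords, 12.8 to 19.3 CPM in low cords and 18.8 to 31.8 CPM in Sham cords, and fell against Sham in both (by 1.01 in high cords, adjusted p = 0.00019, and by 0.73 in low cords, adjusted p = 0.00316). Tmem119 stood at 8.02 to 11.2 CPM in high cords and 9.30 to 20.3 CPM in low cords, and fell by 1.36 and by 0.73 against Sham (adjusted p = 0.000701 and 0.0369). In this bulk RNA, fewer cells of a type and less RNA per cell cannot be told apart.

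Interferon-stimulated genes had 26 of 27 tested members with a positive log2 fold change, 7 with high cords above low cords, 0 below and a median of 0.46. Iigp1, an interferon-induced GTPase, stood at 5.54, 2.69 and 4.48 CPM in high cords and 1.33, 1.78 and 1.27 CPM in low cords. Gbp2 stood at 6.25, 6.80 and 6.54 CPM in high cords and 2.45, 3.82 and 3.64 CPM in low cords, where Sham cords ranged from 1.99 to 5.68 CPM. The antiviral gene Ifit1 stood at 6.53, 7.01 and 5.55 CPM in high cords and 3.94, 3.11 and 3.88 CPM in low cords. More abundant members, Ifi27 at 33.1 to 44.7 CPM in high cords and 31.8 to 41.2 CPM in low cords and Cmpk2 at 29.2 to 31.8 CPM in high cords and 30.8 to 37.4 CPM in low cords, overlapped. Of the 27, 3 rose against Sham in high cords and 0 in low cords. Complement genes gave 3 of 16 with high cords above low cords, among them C3ar1 and C5ar1, and the abundant C3 and C4b overlapped, C3 at 148, 247 and 68.5 CPM in high cords and 102, 81.7 and 88.7 CPM in low cords.

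Reactive astrocyte genes had 23 of 24 tested members with a positive log2 fold change, 9 with high cords above low cords and a median of 0.40. Without Cxcl10 and Il6, tested through the high cords alone, 7 of 22 lay above, with a median of 0.35. Some of the 9 (Il6, Cxcl10, Ptgs2, Cd44 and Osmr) stand on other lists too. Vim, an intermediate filament of glia, stood at 113, 138 and 114 CPM in high cords and 98.9, 89.4 and 79.8 CPM in low cords (log2 fold change 0.45, SE 0.105, adjusted p = 0.448). Gfap, the defining filament of astrocytes, overlapped at 2770, 4370 and 2050 CPM in high cords and 3180, 2300 and 2410 CPM in low cords. Steap4, a metalloreductase that liver and fat also express, stood at 11.5, 2.41 and 8.55 CPM in WT ACC 2, WT ACC 3 and miR155KI ACC 2, 1.64, 0.678 and 0.633 CPM in low cords and 25.2 CPM in miR155KI ACC 5. The libraries with the highest Steap4, miR155KI ACC 5, WT ACC 2 and miR155KI ACC 2, are also those with the highest liver sums, and the part of those transcripts was not tested. Endothelial activation genes had 5 of 24 above and 0 below (median 0.18). Sele was tested through the high cords alone, and without it 4 of 23 lay above. Among them was Plaur, the urokinase receptor, at 6.58, 8.82 and 7.69 CPM in high cords and 3.12, 5.89 and 2.06 CPM in low cords. The adhesion molecule Icam1 overlapped, at 10.6, 7.12 and 9.04 CPM in high cords and 3.53, 9.74 and 3.12 CPM in low cords.

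Immediate early genes rose against Sham in both groups. Of 33 immediate early genes, 26 rose and 0 fell against Sham in high cords, and 26 rose and 0 fell in low cords, while between the groups 7 lay above, 0 below and 0 were called (median 0.12). Fos stood at 167, 165 and 188 CPM in high cords, 199, 177 and 110 CPM in low cords and 8.25 to 18 CPM in Sham cords. Its dimer partner Jun stood at 285, 276 and 329 CPM in high cords and 328, 250 and 210 CPM in low cords. The stress factor gene Atf3 stood at 32.4, 35.5 and 35.5 CPM in high cords, 40.9, 24.8 and 29.5 CPM in low cords and 1.21 to 5.34 CPM in Sham cords. In these 3 genes the low cord miR128KO ACC 3 is the highest of the low cords, and exceeds all 3 high cords in Fos and Atf3. Egr1 had all high cords above the low ones, at 314, 303 and 389 CPM in high cords and 251, 262 and 163 CPM in low cords (log2 fold change 0.57, adjusted p = 0.945). Egr2 stood at 11.5, 7.51 and 8.02 CPM in high cords and 3.53, 4.57 and 1.34 CPM in low cords.

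Heat shock genes likewise rose in both groups against Sham, 18 of 26 in high cords and 19 of 26 in low cords, with 3 above, 1 below and a median of 0.03 between the groups. Hspa1b, the inducible Hsp70, stood at 647, 631 and 761 CPM in high cords, 591, 477 and 415 CPM in low cords and 1.58 to 4.41 CPM in Sham cords (log2 fold change between the groups 0.46, SE 0.13, adjusted p = 0.719). Its near-identical copy Hspa1a stood at 418 to 473 CPM in high cords and 316 to 449 CPM in low cords, and counts of the pair are uncertain. The constitutive Hspa8 overlapped at 2270 to 2510 CPM in high cords and 2280 to 2670 CPM in low cords. Hypoxia genes had 0 of 25 above and 2 below (median -0.06), and genes of the unfolded protein and integrated stress response had 1 of 26 above and 0 below (median 0.06). Among NRF2 targets 1 of 18 lay above, the cystine importer Slc7a11 at 23.7, 25.4 and 23.4 CPM in high cords and 17.5, 14.1 and 16.6 CPM in low cords.

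**Figure D5:**
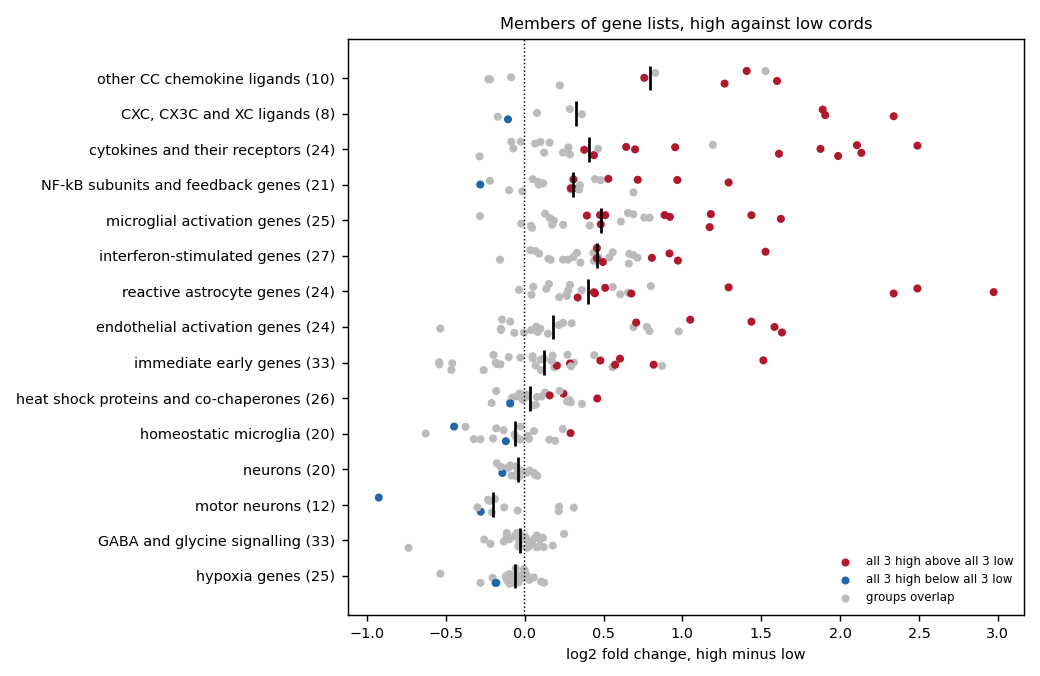
Log2 fold change of high over low cords for each tested member of 15 gene lists, with the number tested in brackets, a black bar at the list's median and a dotted line at the median of all genes tested. Red points have all 3 high cords above all 3 low cords and blue points all 3 below. Red points gather in the chemokine, cytokine, NF-kB, microglial, interferon, astrocyte, endothelial and immediate early rows. Cxcl10, Pf4, Il1b, Il6 and Sele were tested through the high cords alone and had to lie on that side. The rows of neurons and hypoxia genes are centred near 0 (medians -0.04 and -0.06), and the motor neuron row at -0.20.

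No gene was called lower in high cords, where 322 had an unadjusted p under 0.05 and DESeq2 called 5. The 10 genes named as lower had adjusted p from 0.153 to 0.704. Hist1h1c, a linker histone gene, stood at 71.3, 79.7 and 67.9 CPM in high cords, 96.8, 102 and 117 CPM in low cords and 36.1 to 90.7 CPM in Sham cords (log2 fold change -0.53, SE 0.0957). Vgf, which encodes the precursor of neuropeptides released by active neurons, stood at 195, 158 and 205 CPM in high cords and 288, 251 and 248 CPM in low cords (log2 fold change -0.50, SE 0.106). It rose against Sham by 0.75 in low cords (adjusted p = 0.000312) and had a value of 0.26 in high cords (adjusted p = 0.238), with Sham at 125 to 188 CPM. In both genes all 3 low cords lie above every Sham cord, and in Vgf so do the high cords WT ACC 2 and miR155KI ACC 2. Klhdc7a stood at 30.2, 35.1 and 36.4 CPM in high cords, 50.5, 43.4 and 63.7 CPM in low cords and 46.1 to 63.2 CPM in Sham cords, and fell against Sham in high cords by 0.59 (adjusted p = 0.00151). Bmf, a pro-apoptotic Bcl2 relative, stood at 6.20, 6.14 and 5.63 CPM in high cords and 13.1, 11.5 and 7.79 CPM in low cords, with Sham at 7.09 to 14.2 CPM. For Klhdc7a and Bmf all 3 high cords lie below every Sham cord. Brinp2, Azin2 and Lrrc4c had the same order with smaller differences (log2 fold change -0.39, -0.34 and -0.41), and each fell against Sham in high cords (adjusted p = 0.00791, 0.0103 and 0.0184). Etv5, Myadm and Klrg2 complete the 10, with log2 fold changes of -0.35, -0.52 and -1.03.

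As a list, genes of inhibitory signalling, named in the series title, were not separated by the chemokine groups. In GABA and glycine signalling 33 genes were tested and 0 called, 0 had high cords above low cords and 1 had them below (Gphn, the synaptic scaffold gephyrin, log2 fold change -0.10), with a median of -0.03. Gad1, which makes GABA, stood at 207, 189 and 195 CPM in high cords and 232, 199 and 175 CPM in low cords. Slc6a5, the neuronal glycine transporter, stood at 440, 287 and 376 CPM in high cords and 366, 470 and 298 CPM in low cords. Glra3, a glycine receptor subunit, stood at 29.2, 29 and 25 CPM in high cords, 25.6, 19.2 and 25.3 CPM in low cords and 27.7 to 43.4 CPM in Sham cords. Against Sham 2 of the 33 fell in high cords and 2 in low cords. Glutamate genes had 0 of 34 above and 2 below. Motor neuron genes had 0 of 12 above and 2 below with a median of -0.20. The developmental regulator Isl2 had 1.54, 1.37 and 2.26 CPM in high cords and 3.22, 3.53 and 3.16 CPM in low cords, with 1.44 to 3.45 CPM in Sham cords (adjusted p = 0.719). Slc5a7, the choline transporter of cholinergic neurons, overlapped at 83.8 to 96.3 CPM in high cords and 90.5 to 112 CPM in low cords.

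Markers of blood-borne cells leaned to the high side without a call. Monocyte and macrophage genes had 12 of 12 tested members with a positive log2 fold change, 3 with high cords above low cords (among them Pf4, tested through the high cords alone) and a median of 0.65. Against Sham 1 of the 12 rose in high cords, and 1 rose and 1 fell in low cords. Over all genes 4.14% rose in high cords, and 3.50% rose and 1.21% fell in low cords. F13a1, a clotting factor subunit made by monocytes, stood at 4.28, 2.36 and 2.84 CPM in high cords, 1.48, 1.36 and 1.42 CPM in low cords and 2.63 to 6.21 CPM in Sham cords, and fell by 1.47 in low cords against Sham (adjusted p = 0.00345). Pf4, of platelets and some macrophages, stood at 1.76, 0.548 and 0.822 CPM in high cords, 0.204, 0.321 and 0.277 CPM in low cords and 0.216 to 1.21 CPM in Sham cords. Igkc, the kappa light chain of B cells, stood at 1.70, 0.986 and 1.07 CPM in high cords, 0.613, 0.428 and 0.475 CPM in low cords and 0.866 to 3.13 CPM in Sham cords. Of 6 lymphocyte genes tested, 4 were positive and 2 lay above without overlap. The list's sums overlapped, at 48.1 to 51.7 CPM in high cords and 39.8 to 52.4 CPM in low cords. Ighm overlapped at 37.5 to 43.1 CPM in high cords and 34.6 to 46.6 CPM in low cords, as did Trac at 1.04 to 2.08 and 0.869 to 1.86 CPM. For F13a1 and Igkc all 3 low cords are below every Sham cord, and for Pf4 they are at the bottom of the Sham range. Neutrophil genes had 1 of 15 above, with a median of 0.76; S100a9 stood at 25.9, 7.56 and 17.6 CPM in high cords and 8.9, 12 and 8.03 CPM in low cords, and the neutrophil marker Ly6g at 0.384, 0 and 0.206 CPM in high cords and 0.0511, 0.178 and 0.277 CPM in low cords. Blood left in the tissue and cells that entered it cannot be told apart in these libraries.

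The 5 clamped cords in neither group lay between the low and the high cords in Plek or within the high ones. Plek stood at 36.8 CPM in WT ACC 1, 45.7 and 44.6 CPM in miR128KO ACC 4 and 5, and 37.7 and 57.6 CPM in miR155KI ACC 1 and 5. Of the 10 genes named as higher in high cords, 9 lay above the midpoint of the group means (on the log2(CPM + 0.1) scale) in miR155KI ACC 5, 9 in miR128KO ACC 4, 7 in miR128KO ACC 5, 4 in miR155KI ACC 1 and 1 in WT ACC 1. Over all 885 genes with high cords above low cords the share above the midpoint was much closer to even, from 44.9% in miR128KO ACC 4 to 58.8% in miR155KI ACC 5, where 49.1% to 50.6% of all tested genes lay above it. The clamped cord that the study left out, miR128KO ACC 1, had 21.1 CPM of Plek, within the Sham range.

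A comparison within the miR155KI mice, where genotype does not differ, set miR155KI ACC 2 and miR155KI ACC 5, which meets the stated rule, against miR155KI ACC 3 and 4. It shares 3 of its 4 libraries with the main comparison and was chosen after the data were seen. In it 7 genes were called, all higher. They include Plek (log2 fold change 0.86, adjusted p = 0.0425) and Cd14 (0.91, adjusted p = 0.0379), and also Gm29216, Cyp2c37, Cyp2c50, Cyp4a10 and Slco1b2, of which the last 4 are genes of liver metabolism and transport that are not on the liver list. With genotype in the edgeR fit of the 6 libraries 0 genes were called (218 higher and 100 lower at an unadjusted p under 0.05), and a fit with genotype and the Sham libraries called Plek, Slc15a3 and Plau (adjusted p = 0.0374 each).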

How the data were processed

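Poly-A RNA of mouse thoracic and lumbar cord was sequenced from dUTP directional libraries, per the labels' protocols. Reads were processed with fastp, HISAT2 2.0.5 (GRCm38/mm10), featureCounts 1.5.0-p3 and DESeq2, per the submitters' processing notes; other versions and the strand setting are not given in the sources used here. The gene counts are as the authors deposited them (54532 genes). The deposited normalized signal equals those counts over 1 size factor per library (relative spread at most 9.87e-15). The authors' log2 fold changes (deposited as low minus high and turned round here), the Wald score and the p-values come from DESeq2, per the file headers and the submitters' processing notes.

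High and low cords were compared with edgeR 4.0.16 (R 4.3.3) by its quasi-likelihood F test: TMM scaling, filterByExpr with a minimum count of 10, robust, no covariate, Benjamini-Hochberg over all genes tested, threshold 0.05. Each group was compared with Sham in 1 fit of 17 libraries with the labelled genotype as a term. CPM use TMM library sizes over all 23 libraries at 4 h. Depth was 17716333 to 28145121 counts in the 6 libraries. Intervals and limits from counts cover counting error only. The fit was tested on simulated counts. Genes were named by rank (up to 10 a direction, without overlap and from a mean log2 CPM of 1 upward) and by list. A fixed set of 14 was always named, and 64 more were named after their values were seen. The groups, the 42 gene lists and the tests were chosen with earlier results of these data known, and 3 further lists (liver, kidney, adipose) after the values were seen. Alternatives were DESeq2 1.42.0, RLE scaling, no filter, leaving out each library, other spreads, genotype terms, a graded score, and 3 regroupings chosen after seeing the data. The 1 h libraries were not used here. Some items are not reported here.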

Additional observations from a re-analysis of the deposited data

Results flagged for a closer look

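In the 5 clamped miR155KI cords, 3 of the 19 marker lists checked held a library whose gap to the nearest other library exceeded Dixon's critical value of 0.71 of the range. Chance flags about 1 in 20 groups. Liver genes summed to 1530 CPM in miR155KI ACC 5, against 326, 20.1, 15.5 and 8.26 CPM in miR155KI ACC 2, 4, 3 and 1. Skeletal muscle genes summed to 161 CPM in miR155KI ACC 1, and genes of fibroblasts and meninges to 743 CPM in the same library, the highest of the 5 in both. Both libraries are in neither group; miR155KI ACC 5 enters as high in the 3 regroupings, and both enter the graded score.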

How the results depend on the processing

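The comparison of high and low cords called 2 genes, and that count depended on nearly every choice. It was 56 with DESeq2 (51 higher, 5 lower), 196 with no filter on low counts, 2 with RLE scaling, 5 with the spread taken over 22 libraries, 0 with genotype in the edgeR fit of 6 libraries (218 higher and 100 lower at an unadjusted p under 0.05) and 3 with genotype and Sham libraries. A graded score over 11 clamped libraries, built from the choosing genes and so no separate support, called 15 genes, and 6 with genotype. Of the regroupings added after seeing the data, the quartile rule on deposited values called 1 (Plek), miR155KI ACC 5 added to the high group called 8, and miR155KI mice alone called 7. Leaving out each library in turn gave 0 to 78 calls: 0 in edgeR without WT ACC 2 (495 higher and 319 lower at an unadjusted p under 0.05), miR155KI ACC 2 (419 and 190) or miR128KO ACC 3 (601 and 267), 1 without miR155KI ACC 4, 17 without miR155KI ACC 3, and 78 without WT ACC 3, of which 25 are on the liver list. High cords against Sham gave 1165 calls, with 330 (without miR155KI ACC 2) to 1234 on leaving out 1 library, and 762 without WT ACC 2. Low cords against Sham gave 910 calls, with 302 (without miR128KO ACC 3) to 969, 581 without miR155KI ACC 4, and 1468 with no filter. The causes were not tested.

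Plek kept a positive log2 value in all 17 alternatives (0.79 to 0.98 between groups, 0.49 per unit of the graded score) and its call in 12 of them, and Lilr4b a positive one in all 17 and its call in 7. No call changed direction. No paired analysis was possible because the high and low cords share only 1 replicate number, which names a mouse within its genotype. With 3 cords a group and 1 to 10 counts of Il6, Il1b and Mmp12 in low cords, differences in such low genes were measured with little precision.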
